A study of Rattus norvegicus with 19 samples.

Results

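The nuclear genes for the subunits of the respiratory chain and of ATP synthase were followed over 19 left ventricles of male Dahl salt-sensitive rats (Harlan SS/Hsd), which become hypertensive when fed salt. Genes were taken by symbol (Ndufa, Ndufb, Ndufc, Ndufs, Ndufv, Uqcr, Cox4 to Cox8, Atp5 and Sdha to Sdhd, without the Ndufaf assembly factors). This gave 80 of the 14217 genes that a probe set of the Affymetrix arrays named alone. Of these, 34 belong to complex I, 4 to complex II, 7 to complex III, 19 to complex IV and 16 to ATP synthase. Ndufa4 was counted with complex IV, where its protein is found, and its relative Ndufa4l2 with it. Cox7a2l, which joins complexes into larger assemblies, the pseudogene Cox6c-ps1 and Atp5if1, the inhibitor of ATP synthase, also met the rule. Cox7a2 is given apart because its probe set names a further gene.

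A diet with 6% NaCl was started in all rats at 6 weeks of age. The baseline group (n = 4) was untreated and was taken at 11 weeks of age, after 5 weeks of that diet. The other groups were taken at 15 weeks, after 4 more weeks on the diet with treatment. They received vehicle (n = 4), paricalcitol (n = 4), an activator of the vitamin D receptor given as intraperitoneal injections of 200 ng 3 times a week, enalapril with vehicle (n = 3), or paricalcitol with enalapril, called the combination (n = 4). Enalapril, an inhibitor of angiotensin-converting enzyme, was given by osmotic pump at 90 ug per day, a dose chosen not to lower blood pressure. No group on a low-salt diet was part of the comparisons, so every group shares the high-salt diet. Each array held the RNA of 1 rat. Description numbers run in a block of their own within every group, and a cohort effect therefore cannot be told apart from a group effect.

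Complex I takes electrons from NADH and complex II from succinate, and both pass them to ubiquinone. Complex III hands them on to cytochrome c and complex IV to oxygen. The protons pumped on the way drive ATP synthase, which supplies most of the ATP that heart muscle spends on contraction. Most subunits are encoded in the nucleus and some in mitochondrial DNA; the nuclear ones are described here. Several complex IV subunits come in pairs, with 1 form found mainly in heart and skeletal muscle and 1 in most tissues.

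The values below are log2(value + 16) of the deposited intensities after quantile normalization of the 19 arrays, a step that gives all arrays the same distribution. Array medians before that step ran from 43.57 to 72.56. Of the 9 cardiomyocyte markers measured, 9 lay above the median of all genes (7.07), with means from 12.82 (Myh6, a myosin heavy chain) to 14.21 (Tnnt2, cardiac troponin T), and all 6 T cell markers lay below it. Red cell markers were also bright: 4 of 5 lay above that median, with Hbb, a globin, at 14.08. In such whole-tissue RNA, fewer cells of a type and less RNA per cell cannot be told apart. Labels give separate rats, and p-values measure the spread between them within these groups.

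The start regions of the genes are shown here because many of the members moved together from array to array, as described further on. RefSeq start regions on GRCr8 (250 bases before the start and 50 after) matched 72 of the 80 genes. Those not matched were Atp5pd, Cox4i2, Cox6a1, Cox6c, Cox6c-ps1, Ndufa8, Ndufb9 and Uqcr11. Each window of 300 bases was searched on both strands for 6 exact motifs. The NRF-1 motif (GCGCA, then any base, then GCGC), named for a factor known for driving respiratory genes, was in 13 of the 72 (18.1%) and in 4.71% of all 27457 windows. The GABP motif CCGGAAG was in 20 (27.8%) against 9.22%, and the YY1 motif ATGGCGG in 16 (22.2%) against 5.22%. The motif TCAAGGTCA of the estrogen-related receptors was in 2 (2.78%) against 0.412%. The muscle factor MEF2's motif (CTA, then 4 bases of any kind, then TAG) was in 2 (2.78%) against 3.83%, and the Sp1 motif GGGCGG in 31 (43.1%) against 34.9%. These shares count letters in the windows and were given no test. A match is not evidence that the factor binds there. A window may hold several motifs.

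The windows of 4 members are shown, each printed 5′ to 3′ over the 200 bases before the start, with motif matches in capitals. Ndufv3 (complex I, accessory flavoprotein subunit) followed the other members most closely after quantile normalization. Uqcrh (complex III, the hinge protein beside cytochrome c1) had the smallest p-value. Cox5b (complex IV) did not overlap between vehicle and any treated group, and Cox6a2 is the muscle form of a complex IV subunit. Ndufv3 lies on the plus strand (chr20:9613586-9613785), Uqcrh on the minus strand (chr5:134790883-134791082), Cox5b on the plus strand (chr9:46417637-46417836) and Cox6a2 on the minus strand (chr1:192219717-192219916).
Ndufv3: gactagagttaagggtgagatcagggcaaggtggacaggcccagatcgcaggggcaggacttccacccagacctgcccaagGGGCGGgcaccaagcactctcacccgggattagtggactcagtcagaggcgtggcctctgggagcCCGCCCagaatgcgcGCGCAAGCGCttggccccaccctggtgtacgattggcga
Uqcrh: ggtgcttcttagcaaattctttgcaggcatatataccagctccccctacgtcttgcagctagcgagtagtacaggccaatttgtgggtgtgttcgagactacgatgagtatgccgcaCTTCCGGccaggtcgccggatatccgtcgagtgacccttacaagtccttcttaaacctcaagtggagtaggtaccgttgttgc
Cox5b: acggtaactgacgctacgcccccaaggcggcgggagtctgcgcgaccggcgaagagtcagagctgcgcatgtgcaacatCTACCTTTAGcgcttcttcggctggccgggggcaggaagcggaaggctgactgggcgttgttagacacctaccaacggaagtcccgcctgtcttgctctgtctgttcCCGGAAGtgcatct
Cox6a2: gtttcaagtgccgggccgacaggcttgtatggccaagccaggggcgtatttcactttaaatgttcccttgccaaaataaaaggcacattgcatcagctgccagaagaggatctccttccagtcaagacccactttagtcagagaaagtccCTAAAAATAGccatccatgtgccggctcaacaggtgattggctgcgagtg
The capitals mark, in order, Sp1, Sp1 and NRF-1 matches in Ndufv3, a GABP match in Uqcrh, a MEF2 and a GABP match in Cox5b, and a MEF2 match in Cox6a2.

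The subunit genes were among the brightest on these arrays: 77 of the 80 lay above the median of all genes, 72 within the brightest 500 genes and 31 within the brightest 100. Brightness also depends on the probes, so no order among the genes is read from it. In complex I, means over the 19 arrays ran from 10.73 (Ndufb8, a membrane arm subunit) to 13.62 (Ndufb9, of the same arm). Complex II ran from 12.80 (Sdhc, a membrane anchor) to 13.32 (Sdhb, the iron-sulfur subunit), and complex III from 13.07 (Uqcr11) to 13.46 (Uqcrc2, a core protein). ATP synthase ran from 11.54 (Atp5if1) to 13.89 (Atp5f1b, the catalytic beta subunit). Complex IV spanned the widest range, from 4.05 (Cox6b2, a form known from testis) to 13.82 (Cox4i1).

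The 3 members below the median of all genes were isoforms of complex IV subunits known chiefly from other tissues. Cox4i2, the form known from lung, had a mean of 6.86, and Cox7b2, a testis form, of 4.80. Cox6b2 was at the floor of 4 on all arrays but combination 3 (4.89) and combination 4 (4.01). Cox5a, a further complex IV subunit, is represented by a dim probe set (8.19), because the brighter one named a further gene. That brighter probe set ranged from 13.41 to 13.55 over the arrays, with group means from 13.46 (vehicle) to 13.52 (combination).

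Replicates lay close together for most members. The within-group SD had a median of 0.112 over the 80 genes, against 0.235 over all genes, 0.177 over genes above the median and 0.123 over the 500 brightest genes. It was under 0.1 for 34 members and over 0.2 for 11. The most even gene was Atp5pb, a stalk subunit of ATP synthase, with an SD of 0.034, and the most variable Cox4i2, with 0.61. Quantile normalization gives the few brightest genes of each array nearly fixed values, which narrows the spread at the top of the range.

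None of the 80 genes had an adjusted p under 0.05 in any comparison run with limma over all 14217 genes. Those comparisons, taken up in turn, leave out paricalcitol against enalapril, which was not fitted. In the all-member level, the mean over the members of each gene's deviation from its own mean, the groups overlapped. This level was -0.025 ± 0.022 at baseline, -0.020 ± 0.033 with vehicle, -0.005 ± 0.104 with paricalcitol and 0.030 ± 0.157 with the combination (SD, n = 4 each), and 0.027 ± 0.038 with enalapril (SD, n = 3). The paricalcitol and combination arrays were spread more widely than the other 11. Complex I ranged from -0.201 to 0.130 over the paricalcitol arrays and from -0.199 to 0.237 over the combination arrays, but only from -0.059 to 0.039 with vehicle. Complex IV had its lowest group mean with vehicle, at -0.071 ± 0.054 (SD, n = 4), and 0.032 ± 0.083 with paricalcitol (SD, n = 4). Dim members enter that vehicle mean, such as Cox4i2, at 6.38 with vehicle and 6.86 over all arrays. Against baseline, 9 complex IV genes were higher with vehicle and 9 lower, with a median difference of 0.

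**Figure D1:**
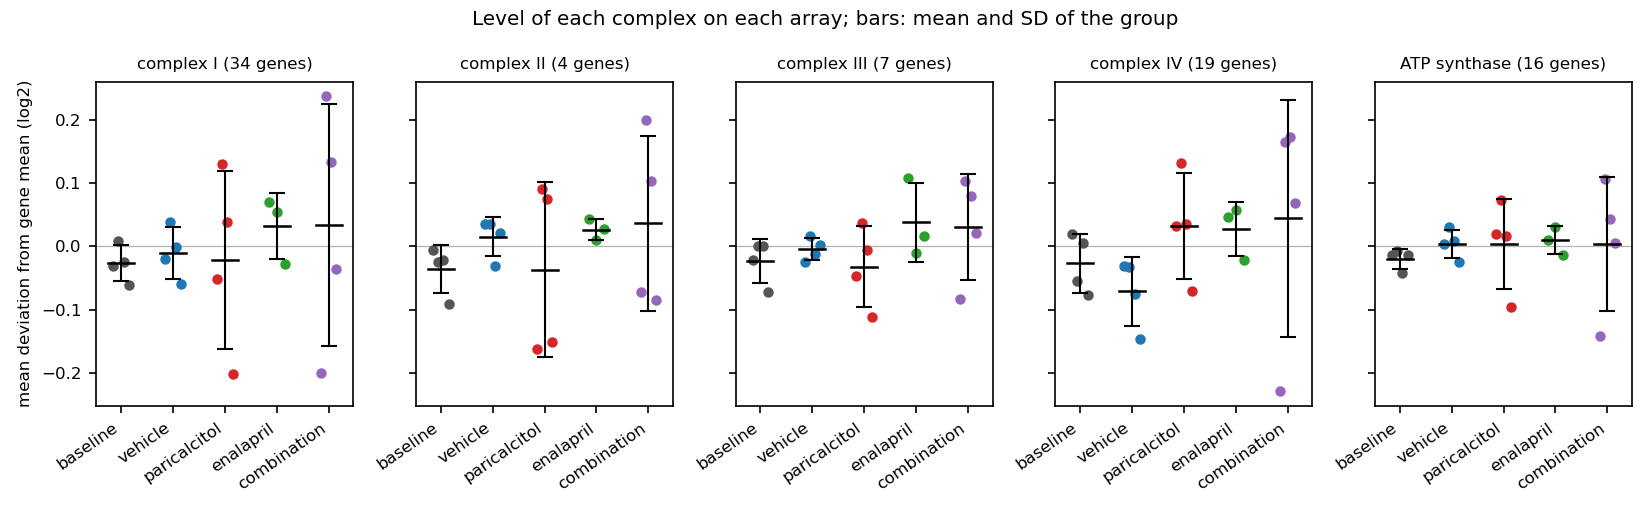
Level of each complex on each array, as the mean log2 deviation of its genes from their own means over the 19 arrays, by group; points are arrays and bars give the group mean and SD. Most groups overlap. The enalapril arrays lie above the vehicle arrays in complex IV (-0.021 to 0.058 against -0.146 to -0.03). They lie above the baseline arrays in complex II (0.01 to 0.043 against -0.09 to -0.006). The paricalcitol and combination arrays spread most, with complex I from -0.199 to 0.237 in the combination group.

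Vehicle against baseline shows what 4 more weeks of high salt and of age went with. None of the 80 genes passed, with 0.0844% of all genes passing (12 of 14217). None reached an unadjusted p under 0.05, against 9.21% of all genes. The members' log2 differences had a median of 0.020, with 47 higher (58.8%) and 32 lower; 47.1% of all genes were higher. The split depends on the scaling: 4 members were higher without equalisation between arrays, 74 with median centring and 43 with cyclic loess. For 63 members the 95% interval lay within 1.25-fold in either direction, and for 76 within 1.5-fold. Larger changes are outside those genes' intervals after quantile normalization. Here and in the later comparisons, intervals were not counted under other scalings. Over the alternatives run, the members' median in this comparison ran from -0.093 to 0.158. The groups did not overlap for 2 members, against 7.77% of all genes: Cox5b, and Ndufa12, an accessory subunit of complex I (0.072, named after its values were seen).

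Cox5b was 13.33, 13.38, 13.30 and 13.47 on the baseline arrays and 13.28, 13.26, 13.27 and 13.26 on the vehicle arrays. The vehicle arrays lay below every baseline array and within 0.02 of each other. The difference was -0.104 (SE 0.055, limma adjusted p = 0.601). Cox8a, the ubiquitous form of the smallest complex IV subunit, differed by -0.133 (SE 0.079) with overlapping groups. Cox4i2 differed by -0.589 (SE 0.418), from 6.97 ± 0.56 to 6.38 ± 0.82 (SD, n = 4 each), a difference of the size of its spread. Ndufb8 differed by 0.20 (SE 0.166), and vehicle 3, at 11.20, was its highest vehicle array, the others lying between 10.63 and 10.77. All 4 complex II genes were higher with vehicle, by 0.024 (Sdha, the flavoprotein that oxidises succinate) to 0.104 (Sdhc), and none passed. Markers of other cells were mostly lower with vehicle: 7 of 8 fibroblast markers (median -0.325), 6 of 7 endothelial markers (median -0.317), 7 of 8 smooth muscle and pericyte markers (median -0.282), 7 of 8 macrophage markers (median -0.227) and 5 of 5 red cell markers (median -0.314). Of these only Cd93, an endothelial receptor, passed (-1.131, SE 0.178, limma adjusted p = 0.0346). Cardiomyocyte markers had a median of 0.015. Of 6 T cell markers, all dim, 4 were higher and 2 lower (median 0.035). Of 6 skeletal muscle and atrial markers 3 were higher and 1 lower (median 0.024). The part of these cells in the members' values was not tested.

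Paricalcitol against vehicle gave no member past the threshold, where 0.0141% of all genes passed. At an unadjusted p under 0.05 there were 2 members (2.50%), against 9.66% of all genes; the count was between 0 and 4 when 1 array was left out. The median difference was 0.001, with 40 of the 80 members higher, against 49.4% of all genes, and 39 lower. The members higher numbered 26 without equalisation, 5 with median centring and 58 with cyclic loess; they numbered 22 without paricalcitol 2 and 59 without paricalcitol 4. Intervals lay within 1.25-fold for 66 members. Complex II genes were lower by 0.003 to 0.099 in 4 of 4, and complex IV genes were higher in 13 of 19, with no gene passing in either. In the same comparison 8 of 8 smooth muscle and pericyte markers (median 0.394) and 7 of 7 endothelial markers (median 0.302) were higher, with none past the threshold, and cardiomyocyte markers had a median of 0.016; their part was not tested.

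The 2 members were Atp5f1d, the delta subunit in the central stalk of ATP synthase, and Cox5b. Atp5f1d was 12.77, 12.72, 12.62 and 12.79 with vehicle and 12.54, 12.63, 12.71 and 12.55 with paricalcitol. These ranges overlap, and the difference was -0.119 (SE 0.049, limma adjusted p = 0.43). Cox5b was 13.49, 13.46, 13.29 and 13.34 with paricalcitol, all above the narrow vehicle arrays given above. Its difference was 0.129 (SE 0.055, limma adjusted p = 0.453), and it was the 1 member without overlap, against 5.04% of all genes. The largest differences otherwise were in dim members: 0.667 for Cox4i2, 0.521 (SE 0.281) for Cox7b2 and 0.281 (SE 0.166) for Cox6c-ps1, each with overlapping groups.

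Enalapril against vehicle likewise gave no member past the threshold, and 0% of all genes passed. Only 1 member (1.25%) reached an unadjusted p under 0.05, against 5.64% of all genes. The median difference was 0.035, with 58 members higher (72.5%, against 53.4% of all genes) and 22 lower. Complex I genes were higher in 28 of 34 and complex III genes in 7 of 7, while ATP synthase genes were higher in 9 of 16. This share depends on the scaling: 79 members were higher without equalisation between arrays, 21 with median centring and 45 with cyclic loess, so no common direction is read from it.

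That member was Uqcrh. It was 13.32, 13.45, 13.33 and 13.37 with vehicle, and 13.61, 13.47 and 13.47 with enalapril. All 3 enalapril arrays were above the vehicle arrays, and the difference was 0.148 (SE 0.057, limma adjusted p = 0.822). In all, 6 members did not overlap, against 8.53% of all genes: Cox5b, Cox6a1, Cox7a1, Cox8b and Uqcrh were higher with enalapril and 1, Cox6b1, a subunit facing the intermembrane space, was lower (-0.053). Cox7a1, the muscle form of its subunit, had the largest difference among members above the median of all genes, 0.334 (SE 0.302); the dimmer Cox4i2 had 0.603. It was 9.16, 9.74, 9.70 and 9.50 with vehicle and 9.98, 9.75 and 9.84 with enalapril, so the lowest enalapril array exceeded the highest vehicle array by a small margin. Cox5b differed by 0.115 (SE 0.06) and Atp5f1c, the rotating gamma subunit, by 0.083 (SE 0.057).

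The combination against vehicle had 0 members past the threshold, with 0.00703% of all genes passing. At an unadjusted p under 0.05 there were 3 members (3.75%), against 7.67% of all genes. The median difference was 0.032, with 58 members higher (72.5%, against 50.9% of all genes) and 22 lower. The members higher numbered 53 without equalisation, 22 with median centring and 59 with cyclic loess. Single arrays also moved these counts: without combination 1, 76 members were higher and 13 had an unadjusted p under 0.05, and without combination 2, 33 were higher. Without vehicle 1 no member reached that p, and without vehicle 3 or combination 3 only 1 did; without combination 4 there were 5. Uqcrh was 0.134 higher (SE 0.053, limma adjusted p = 0.586) and Cox5b 0.122 higher (SE 0.055), the latter without overlap, as for 4.23% of all genes. Atp5f1a, the alpha subunit of ATP synthase, was 13.58, 13.57, 13.51 and 13.45 with vehicle and 13.34, 13.46, 13.49 and 13.43 with the combination. These groups overlap, and the difference was -0.097 (SE 0.04, limma adjusted p = 0.604). Ndufb10, a membrane arm subunit of complex I, had the largest difference among the brighter members, 0.259 (SE 0.122). The 3 comparisons with vehicle share the same 4 vehicle arrays, so Cox5b's narrow and low vehicle values enter each of them. With median centring its difference from vehicle was -0.005 with paricalcitol and -0.004 with enalapril, and that between vehicle and baseline 0.058.

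**Figure D2:**
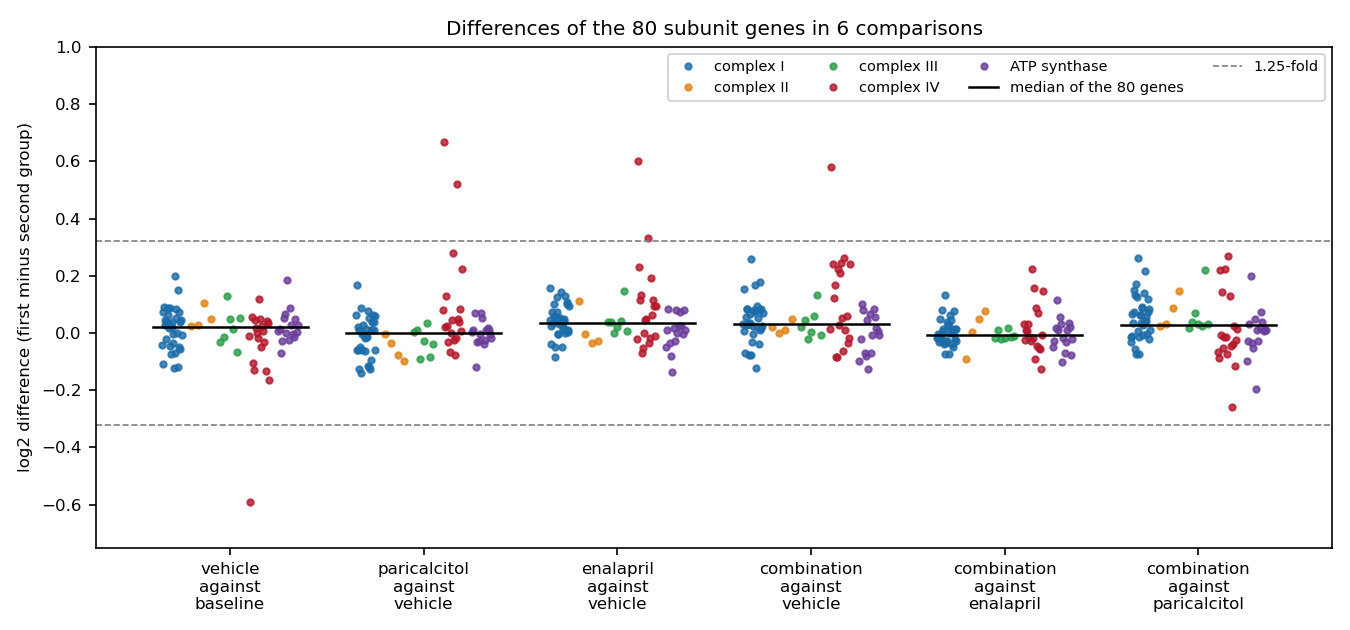
Log2 differences of the 80 genes in 6 comparisons, the group named first minus the other, coloured by complex; black lines are medians over the 80 genes and dashed lines mark 1.25-fold. Medians lie between -0.008 and 0.035, and the points farthest out are dim members such as Cox4i2, at -0.589 for vehicle against baseline and 0.667 for paricalcitol against vehicle.

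The smallest p-values among the members came from the combination against paricalcitol, the comparison for what enalapril added. Even so, none passed, with 0% of all genes passing. At an unadjusted p under 0.05 there were 7 members (8.75%), close to the 9.04% of all genes. The median difference was 0.027, with 52 higher (65.0%, against 48.2% of all genes) and 28 lower. The members higher numbered 58 without equalisation, 66 with median centring and 35 with cyclic loess. They numbered 72 without combination 1, where 12 members had an unadjusted p under 0.05, 33 without combination 2 and 35 without paricalcitol 4. The 7 were Uqcrh, Atp5f1d, Ndufab1, Ndufc2, Ndufb10, Cox7a2l and, lower, Atp5f1a.

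Uqcrh was 13.29, 13.36, 13.33 and 13.15 with paricalcitol and 13.48, 13.55, 13.55 and 13.43 with the combination. Every combination array was above every paricalcitol array, by 0.219 on average (SE 0.053, unadjusted p = 0.000833, limma adjusted p = 0.177). At baseline this gene lay between 13.35 and 13.49, and so between the paricalcitol and the combination means. Leaving out 1 array at a time moved the difference between 0.178 and 0.243, and no setting brought it past the threshold.

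Atp5f1d was 12.80, 12.79, 12.77 and 12.86 with the combination, all above the paricalcitol arrays given above. The difference was 0.20 (SE 0.049, unadjusted p = 0.000944, limma adjusted p = 0.183). Atp5f1a went the other way: it was 13.50, 13.56, 13.55 and 13.50 with paricalcitol, all above the combination arrays, with a difference of -0.099 (SE 0.04). So 2 subunits of the same catalytic sector had differences of opposite sign. These 3 genes were the members without overlap, as for 3.43% of all genes.

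Ndufab1, the mitochondrial acyl carrier protein that is also a complex I subunit, was 0.127 higher with the combination (SE 0.045, limma adjusted p = 0.381). The accessory complex I subunits Ndufc2 and Ndufb10 were 0.218 (SE 0.078) and 0.263 (SE 0.122) higher, and Cox7a2l 0.129 (SE 0.055). These 4 overlapped between the groups. All 7 complex III and all 4 complex II genes were higher, while 12 of 19 complex IV genes were lower. Beside these values, all 8 smooth muscle and pericyte markers were lower with the combination than with paricalcitol, with a median of -0.412 and none past the threshold; their part in the result was not tested. The 9 cardiomyocyte markers had a median of -0.002.

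**Figure D3:**
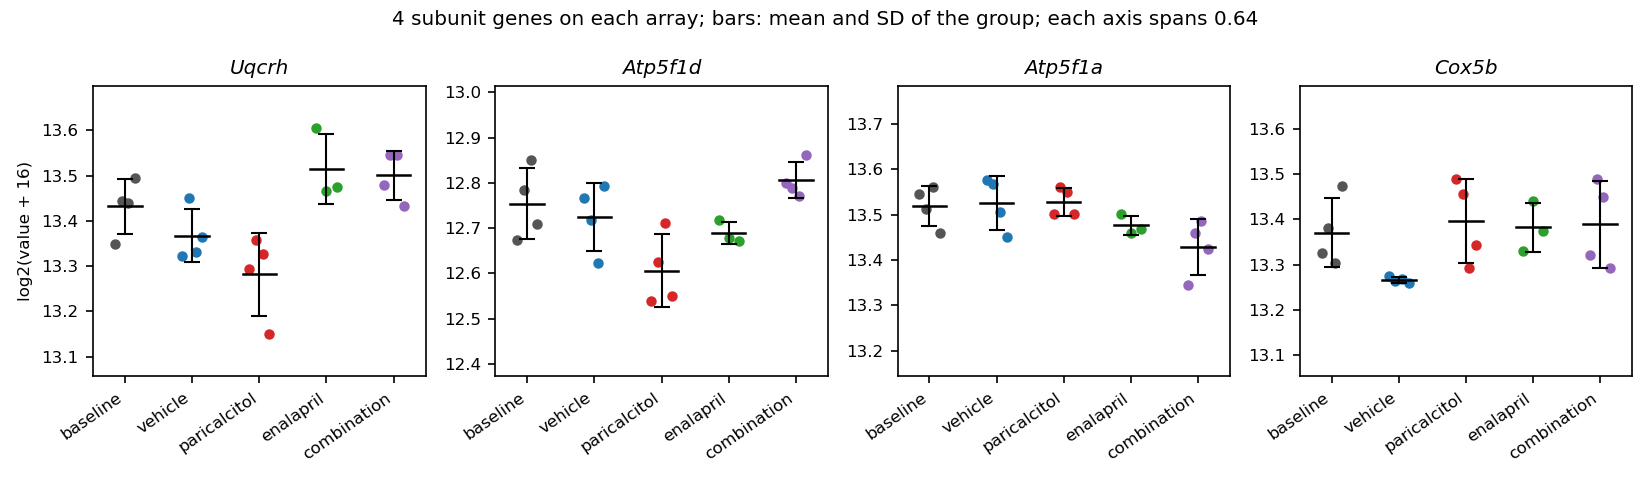
Values of Uqcrh, Atp5f1d, Atp5f1a and Cox5b on each array as log2(value + 16), by group, with the group mean and SD; each axis spans the same 0.64. Uqcrh and Atp5f1d are higher on all 4 combination arrays than on any paricalcitol array, and Cox5b is between 13.26 and 13.28 on the 4 vehicle arrays.

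The combination against enalapril, the comparison for what paricalcitol added, had no member past the threshold and 0% of all genes. At an unadjusted p under 0.05 there was 1 member (1.25%), against 5.31% of all genes. This was Atp5f1d, at 12.72, 12.68 and 12.67 with enalapril and so below all 4 combination arrays (0.117, SE 0.053, limma adjusted p = 0.908). It was the 1 member without overlap, against 4.94% of all genes. The median difference was -0.008, with 36 higher (45.0%, against 49.7% of all genes) and 44 lower, but 4 were higher without equalisation, 45 with median centring and 55 with cyclic loess. Without combination 1 it was 72 (median 0.058), without combination 2 it was 15 (median -0.047), and without enalapril 3 it was 24. Atp5f1d was -0.007 and Cox7a2l -0.076 without equalisation. Other members named by their p or size were Cox7a2l (0.089, SE 0.059), Cox6b2 (0.225, SE 0.151, from 2 arrays off the floor) and Cox6c-ps1 (0.158, SE 0.179).

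The interaction asks whether the difference that paricalcitol made was the same with and without enalapril. No member passed, nor did any gene (0% of all genes), and 1 member (1.25%) had an unadjusted p under 0.05, against 6.96% of all genes, with 1 to 3 when 1 array was left out. This was again Atp5f1d, with 0.236 (SE 0.072, unadjusted p = 0.00498, limma adjusted p = 0.496). It was lower with paricalcitol than with vehicle and higher with the combination than with enalapril. Sdhd, a membrane anchor of complex II, had 0.177 (SE 0.104) and Cox7a2l 0.165 (SE 0.081). Intervals were wider here: 39 members lay within 1.25-fold and 71 within 1.5-fold. The median was -0.002, with 39 higher (48.8%, against 48.6% of all genes) and 41 lower; 11 were higher without equalisation, 73 with median centring and 32 with cyclic loess. Leaving out combination 1 gave 60 higher, combination 2 gave 22 and paricalcitol 4 gave 24.

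Against baseline, the drug groups gave no member past the threshold either, while 0.0281%, 0.0141% and 0.176% of all genes passed for paricalcitol, enalapril and the combination. Members higher than at baseline numbered 51 with paricalcitol, 67 with enalapril and 65 with the combination, where 47.5%, 52.6% and 48.7% of all genes were higher. Medians were 0.015, 0.050 and 0.046. Whether these counts and medians depend on the scaling was not tested, so no common direction is read from them. Over the alternatives run, the all-member level ran from -0.07 to 0.058 at baseline and from 0.003 to 0.101 with enalapril. At an unadjusted p under 0.05 there were 4 members with paricalcitol, 0 with enalapril and 2 with the combination, where 7.76%, 8.07% and 10.3% of all genes reached it. The groups did not overlap for 0, 8 and 0 members, against 3.72%, 8.89% and 5.58% of all genes. These comparisons share the 4 baseline arrays, which were also taken at a younger age.

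The muscle and ubiquitous isoforms of complex IV did not pass in any comparison. Cox6a2 had group means from 13.78 (combination) to 13.86 (vehicle), and Cox6a1, the ubiquitous form, from 11.97 (vehicle) to 12.14 (combination). Cox8b, the muscle form, ran from 13.31 (baseline) to 13.44 (enalapril), and Cox8a from 12.63 (vehicle) to 12.76 (baseline). Cox4i1 ran from 13.78 (enalapril) to 13.88 (paricalcitol). Ndufa4 stayed between 13.50 and 13.54, and the dimmer Ndufa4l2, known to be induced by low oxygen, between 7.21 and 7.45, less than its within-group SD of 0.342. Cox6b1 ran from 13.17 (combination) to 13.25 (vehicle).

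Catalytic core subunits did not pass either. Ndufs1, the large iron-sulfur subunit of complex I, had group means from 12.69 to 12.74 and a within-group SD of 0.145. Ndufv1, which binds NADH, ranged from 12.44 to 12.52, and Uqcrfs1, the Rieske iron-sulfur protein of complex III, from 13.37 (baseline) to 13.44 (combination). Uqcrc1, a core protein of complex III, ranged from 13.09 to 13.22. Atp5f1b stayed between 13.87 and 13.90. In complex II the means were 12.80 to 12.94 for Sdha, 13.30 to 13.34 for Sdhb, 12.73 to 12.85 for Sdhc and 12.99 to 13.14 for Sdhd.

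The 7 probe sets that name a subunit gene together with a relative (of Atp5mc1, Atp5mc2, Cox5a, Cox7a2, Ndufa10, Ndufs5 and Uqcrb) lie outside the 80 genes. Their differences ran from -0.129 to 0.137 over the 7 comparisons, and none reached an unadjusted p under 0.05. The probe set of Cox7a2, the ubiquitous partner of Cox7a1, had group means from 13.89 to 13.92. A further probe set of Sdhd gave group means from 12.08 (paricalcitol) to 12.18 (combination), in the same order at those ends as the chosen one. Not all further probe sets ran with the chosen one. A dim probe set of Atp5if1 (mean 5.14, against 11.54 for the chosen one) differed by -1.122 between vehicle and baseline (SE 0.272, unadjusted p = 0.000883 in limma) and by 0.806 between paricalcitol and vehicle (SE 0.272, unadjusted p = 0.00958 in limma). The chosen probe set of Atp5if1 gave 0.067 and -0.027, and a further dim one (mean 7.05) 0.083 and 0.339. These p-values were not adjusted over all genes, and Atp5if1 was picked out here after its values were seen.

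While group means differed little, the members moved together from array to array within groups. After group means were subtracted, the 77 brighter members had a median pairwise Pearson correlation of 0.547 over the 19 arrays, and 91.5% of the 2926 pairs were above 0. The 428 brightest genes other than members had a median of -0.001, and all genes above the median 0.002. Without equalisation between arrays the members had 0.62 and those bright genes 0.565. With median centring the values were 0.634 and 0.142, and with cyclic loess 0.628 and 0.001. The size of this contrast thus depends on the scaling. The values that follow are after quantile normalization. Pairs within a complex had a median of 0.645 and pairs between complexes 0.51. Within complex I the median was 0.718, in complex II 0.649, in ATP synthase 0.42, in complex III 0.348 and in complex IV 0.321. Points share the arrays, the RNA preparation and the normalization, and these correlations are descriptions with no test.

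The shared movement was larger on some arrays than on others. Over the 8 paricalcitol and combination arrays the median pairwise correlation was 0.695, and over the other 11 it was 0.165. On paricalcitol 2, 73 of the 80 genes were above their own mean, and on paricalcitol 4 only 7 were. On combination 2 and 3, 74 and 71 were above, and on combination 1 only 14. Without equalisation between arrays the medians were 0.67 and 0.611, where the 500 brightest genes without members also correlated (0.643 and 0.49). With median centring they were 0.714 and 0.566, and with cyclic loess 0.752 and 0.284, so the contrast between these sets of arrays depends on the scaling.

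Ndufv3 showed this movement on the widest scale in complex I. It was 11.98, 12.26, 12.14 and 11.70 on the paricalcitol arrays and 11.27, 12.51, 12.32 and 12.02 on the combination arrays, but between 11.86 and 12.09 on the vehicle arrays. Combination 1 was the lowest array and combination 2 the highest of the 19. Its correlation with the mean of the other brighter members was 0.965 (Spearman 0.947), and 0.946 without the 2 arrays farthest from the median. That correlation was 0.951 with cyclic loess and 0.857 with median centring. Without equalisation it was 0.511, where Ndufb5 had 0.957, so its rank depends on the scaling. After quantile normalization Ndufb6, an accessory subunit of complex I (0.96), and Ndufa4 (0.931) were also close to that mean. These 3 were picked out after their values were seen. Complex I as a whole followed the mean of the other complexes with r = 0.974, and complex II with r = 0.795.

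Of the 77 brighter members, 63 followed the mean of the others with r above 0.5 and 75 with r above 0. The 2 that went against it, singled out after their values were seen, were Atp5if1 (-0.218) and Cox6a1 (-0.846, Spearman -0.742). Cox6a1 was 12.13, 11.82, 11.81 and 12.23 on the paricalcitol arrays and 12.42, 11.87, 11.95 and 12.33 on the combination arrays. It was therefore high on arrays 1 and 4 of both groups, and low on arrays 2 and 3. Its muscle partner Cox6a2 went with the other members (0.776), as did Cox7a1 (0.902) and Cox8b (0.787), with a weaker value for Cox8a (0.238).

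For Cox6a1 the correlation was -0.929 over the 8 paricalcitol and combination arrays and -0.142 over the other 11, and -0.755 without the 2 farthest arrays. It was -0.849 with cyclic loess and -0.467 with median centring, but 0.378 without equalisation between arrays. The opposite direction was thus not seen without equalisation, where bright genes of all kinds moved together. In that setting Cox6a2 had 0.384, Cox7a1 0.412, Cox8b 0.441 and Cox8a 0.631. The contrast between muscle and ubiquitous forms therefore depends on the scaling.

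**Figure D4:**
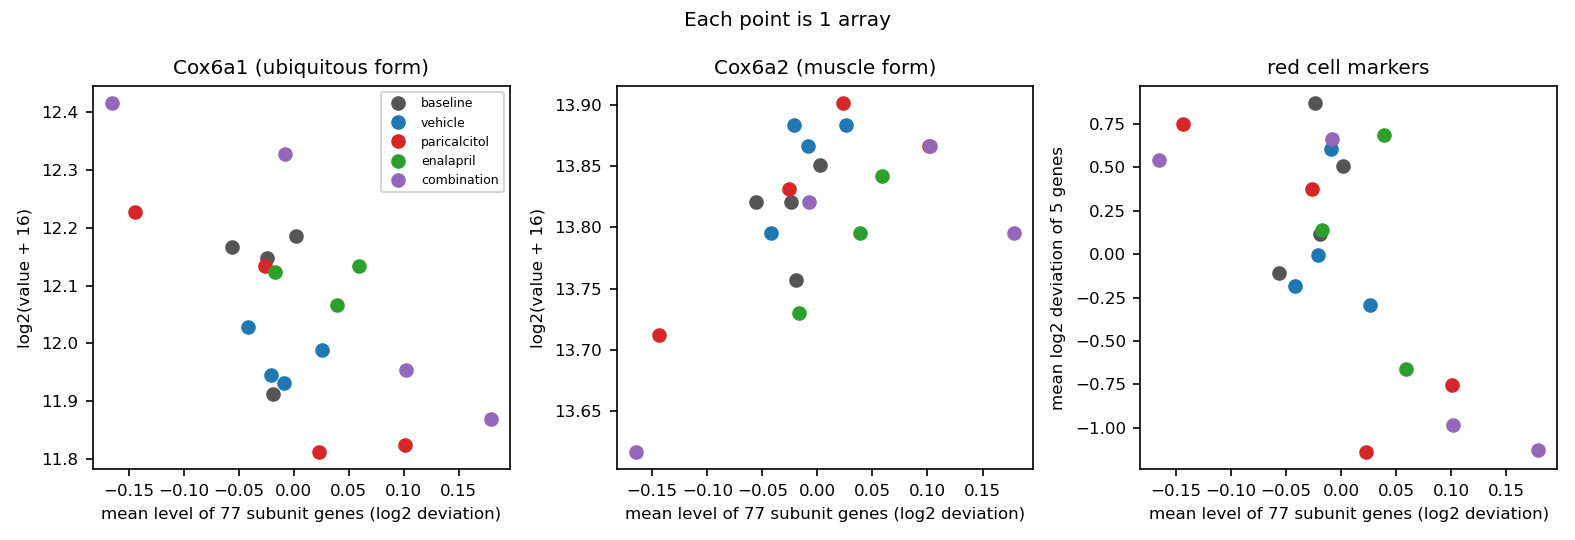
Cox6a1, Cox6a2 and the mean of 5 red cell markers on each array against the mean level of the 77 brighter subunit genes, all on log2 scales, 1 point per array coloured by group. Cox6a1 and the red cell markers fall from left to right and Cox6a2 rises; the combination and paricalcitol arrays hold both ends.

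Markers of other cells moved with this level. The mean deviation of 5 red cell markers was 0.378, -0.756, -1.137 and 0.747 on the paricalcitol arrays and 0.540, -1.126, -0.985 and 0.665 on the combination arrays. The markers were low on arrays 2 and 3 of both groups, where most members were above their own means. They were high on paricalcitol 4 and combination 1, where most members were below. They were also high on paricalcitol 1 and combination 4, where the members were more evenly split (35 above and 45 below, and 39 above and 41 below). Over all 19 arrays, after group means were subtracted, the level of the members and that of the red cell markers had r = -0.698 (Spearman -0.725, -0.631 without the 2 farthest arrays). It was -0.842 over the 8 paricalcitol and combination arrays and -0.046 over the other 11. For 8 macrophage markers r was -0.621 over the 19 arrays and -0.723 over the other 11. For 6 skeletal muscle and atrial markers it was -0.598 and -0.826, for 9 cardiomyocyte markers 0.455 and 0.861, and for 6 T cell markers, which are all dim, 0.523 and 0.48. Fibroblast markers had -0.245 and -0.325, endothelial markers 0.305 and 0.477, and smooth muscle and pericyte markers 0.175 and 0.271. These correlations were taken after quantile normalization only, and whether they depend on the scaling was not tested. The part of other cells in the members' movement was not tested. A fit with the red cell level as a covariate left 0 members past the threshold in each comparison and the combination against paricalcitol difference of Uqcrh at 0.216 (limma adjusted p = 0.109).

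Genes that serve the chain outside the members were read from lists. Cyc1, itself a complex III subunit, was counted with the electron carriers because its symbol lies outside the rule for members. Of 48 assembly factors 42 were measured, of 26 electron carriers and outer partners 24, and of 20 regulators of mitochondrial gene expression 20. None passed in any of the 7 comparisons. In the combination against paricalcitol, 36 assembly factors were higher and 6 lower (median 0.18), 18 carriers were higher and 6 lower (median 0.142), and 11 regulators were higher and 9 lower (median 0.015). The members' median was 0.027, and 48.2% of all genes were higher. In paricalcitol against vehicle, 10 assembly factors were higher and 31 lower (median -0.074), 6 carriers were higher and 18 lower (median -0.058), and 13 regulators were higher and 7 lower (median 0.02). These comparisons share the paricalcitol arrays. The list counts and medians were not rerun with other scalings or with arrays left out, so no common direction is read from them.

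Sco1, which delivers copper to complex IV, had the smallest p among them: it was 0.288 higher with the combination than with paricalcitol (SE 0.067, limma adjusted p = 0.172) and differed by -0.255 between paricalcitol and vehicle (SE 0.067). Ndufaf7, a methyltransferase for complex I assembly, differed by 0.644 (SE 0.172) and Coq3, an enzyme of ubiquinone synthesis, by 0.338 (SE 0.086) between combination and paricalcitol. Ppargc1a, the coactivator PGC-1alpha, differed by 0.448 in that comparison (SE 0.155, limma adjusted p = 0.378). Ucp2, an uncoupling protein, differed by -0.582 between paricalcitol and vehicle (SE 0.155, limma adjusted p = 0.209). Gpd2, the mitochondrial glycerol phosphate dehydrogenase, differed by 0.464 between enalapril and vehicle (SE 0.155). Sco1, Ndufaf7, Coq3, Ppargc1a, Ucp2 and Gpd2 were named after their values were seen. Array by array, the lists followed the members after quantile normalization. Over the 19 arrays r was 0.857 for the carriers, 0.807 for the regulators and 0.799 for the assembly factors. Whether these values depend on the scaling was not tested.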

How the data were processed

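RNA of 19 left ventricles was measured on 1 Affymetrix array each. The authors deposited linear intensity values per probe set; the software is not given in the sources used here. Per array, 16.0% to 18.2% of values were negative, which requires an earlier background subtraction. From these deposited intensities, quantile normalization over all arrays was run, values below 0 were set to 0, and log2(value + 16) was taken. Probe sets were named from GEO's platform annotation of 2016: of 31099, 20826 name 1 gene, 436 several and 9780 none, with 57 controls. The brightest probe set represents each of 14217 genes. For 72 members this is the sole choice.

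Group means were estimated with limma 3.58.1 (R 4.3.3, eBayes with a variance trend) from the 19 arrays together, and the code was tested on simulated data. P-values are two-sided and Benjamini-Hochberg adjusted over all genes, with a threshold of 0.05, and intervals cover 95%. The number of arrays limits the precision. Members and lists were chosen with earlier results of these data known. Genes named are the 3 smallest p and the largest difference per comparison, the brightest and dimmest of each complex, and a panel of isoforms, complex II and core genes; others are said to be chosen after their values were seen or complete a stated count. Alternatives were the scaling, pseudocount, probe set choice, filter, variance model, array weights, replicate block, red cell covariate, the samples in the fit and leaving out each array.

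Same-numbered arrays deviated together (all correlations over 0.1) in 1 of 10 pairs of groups, paricalcitol and combination (0.315 to 0.556, 4 pairs). Differently numbered arrays were not set beside them, so this does not show that the numbers mark pairs. The labels do not say what a number marks. No 2 arrays were alike enough to be 1 sample deposited again (highest correlation 0.9877 over genes above the median).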

Additional observations from a re-analysis of the deposited data

Results flagged for a closer look

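Single arrays stood apart from the other 3 of their group by Dixon's criterion in 11 of 152 groups of 4 arrays tested, where chance gives about 7.6 (1 in 20). Tested were the panel and named members, the all-member level and the level of each complex. In the vehicle group, Atp5f1b on array 2 (13.901, the others 13.891) differed by 0.01, at the top of the range where quantile normalization gives nearly fixed values. Also in that group, Cox6c-ps1 was 7.187 on array 2 (others 6.914 to 6.959) and Cox8b 13.275 on array 4 (others 13.365 to 13.38). On combination 1, Atp5f1b was 13.81 (others 13.891 to 13.901) and Cox8b 12.886 (others 13.425 to 13.474). On combination 3, Cox6b2 was 4.886 (others 4 to 4.014).

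At baseline, Cox6a1 was 11.913 on array 1 (others 12.147 to 12.185), Ndufb8 10.467 on array 1 (others 10.664 to 10.703), and the all-member level -0.057 on array 4 (others -0.018 to -0.012). With paricalcitol, Cox6b1 was 13.074 on array 4 (others 13.209 to 13.225) and Uqcrc1 13.322 on array 2 (others 13.043 to 13.078).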

How the results depend on the processing

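The count of members past the threshold stayed at 0 in all 7 comparisons under every alternative run and with each array left out. The replicate block left it at 0, with 8 members at an unadjusted p under 0.05 for the combination against paricalcitol; run on those groups alone, an alternative chosen after seeing the data, it also gave 0 passing and 9 at that p. The block changed no call. Scaling moved the members as a set. Without equalisation between arrays the median difference was -0.093 for vehicle against baseline, 0.143 for enalapril against vehicle and -0.114 for the combination against enalapril. With median centring it was 0.158 for vehicle against baseline, -0.134 for paricalcitol against vehicle, -0.055 for enalapril against vehicle and 0.14 for the interaction. The all-member level became 0.058 at baseline, -0.057 with vehicle and 0.101 with enalapril without equalisation, and -0.07 at baseline and 0.065 with vehicle under median centring. Turned in sign were, without equalisation, Atp5f1d (-0.007) and Cox7a2l (-0.076) for the combination against enalapril, and, with median centring, Cox5b for vehicle against baseline (0.058), paricalcitol against vehicle (-0.005) and enalapril against vehicle (-0.004), and Atp5f1c for enalapril against vehicle (-0.06). The cause was not tested. The median of all genes itself moved by -0.201, 0.172 and -0.111 without equalisation for vehicle against baseline, enalapril against vehicle and the combination against enalapril, the shifts against which the members' medians there are read. Counts of members at an unadjusted p under 0.05 also moved with the scaling, for vehicle against baseline from 0 to 25.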
